A study of Mus musculus with 8 samples.

Results

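The secretory Rab genes described here are 9 of the 56691 gene IDs counted: the GTPases Rab3a, Rab3b, Rab3c, Rab3d, Rab26, Rab27a and Rab27b, the effector Rph3a (rabphilin) and Rab3gap1, the catalytic subunit of the Rab3 GTPase-activating protein. They were chosen by name, with the difference between the 2 groups of libraries already known, so that difference is given for them as a description without a test. All 9 symbols were found once each, and all 9 genes passed the filter on low counts.

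Rab GTPases are molecular switches on membranes: bound to GTP they recruit effectors, and GTPase-activating proteins return them to the inactive GDP form. Rab3 proteins sit on synaptic vesicles and dense-core vesicles and act at docking and release, Rab27 proteins act on secretory granules and lysosome-related organelles, and Rab26 has been linked to vesicle clusters and their autophagy. In dopamine neurons, which release transmitter from their axons, cell bodies and dendrites, these proteins belong to the late steps of regulated secretion.

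Ribosome-bound RNA of the mouse ventral tegmental area, in the midbrain, was sequenced from 8 libraries of males (the Y in each genotype), which the labels call dopaminergic neuronal cells. Of these, 4 carry the genotype Ogtflox+/Y and are called KO in the labels (Ogt knockdown, replicates 2, 3, 4 and 5). The other 4 carry Ogtflox-/Y and are called WT (control, replicates 3, 4, 5 and 6). Mice of both genotypes received AAV-TH-Cre, which expresses Cre recombinase from a tyrosine hydroxylase promoter, and AAV-Flex-NBL10, which gives HA-tagged NBL10, the handle for the ribosomes, only in cells with Cre. Cre activity follows that promoter in the injected tissue, and the ages of the mice and the number of mice per library are not given in the sources used here. Nothing says that replicates came from separate mice, so each p-value measures the spread between libraries alone, and that spread may be technical.

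Libraries held between 49802305 and 147747191 counted reads. Ogt, the targeted gene, had 108.3 to 159.4 CPM (read counts relative to library size, scaled by the trimmed mean of M values, TMM) in controls and 36.0 to 74.4 CPM in knockdown libraries. Th and Slc6a3, which mark dopamine neurons, were detected in all 8 libraries but were lower in every knockdown library than in any control. Th had 435 to 1241 CPM in controls and 180.1 to 282.4 CPM in knockdown libraries. Slc6a3 had 185.4 to 389 CPM in controls and 34.81 to 82.87 CPM in knockdown libraries. Control replicate 3 stood apart: 8 endothelial markers summed to 955.7 CPM there and to between 11.4 and 18.9 CPM in the other controls. It also differed in other markers. Th was at 1241 CPM there and at 435 to 619.4 CPM in the other controls. The sum of 10 astrocyte markers was 1510.2 CPM there and 3859.4 to 5719 CPM in the other controls. Values without it, or without both libraries numbered 3, are given for a number of genes below.

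Rab3a (GRCm39, chromosome 8, 71207328 to 71211323, plus strand) is the main Rab3 protein of brain synaptic vesicles. Its level was 1329, 1199, 1174 and 1186 CPM in control replicates 3, 4, 5 and 6, against 407.3, 571.6, 514.6 and 603.5 CPM in knockdown replicates 2, 3, 4 and 5. Control replicate 3 was the highest, and every knockdown library lay below every control. The mean was 1222 ± 72.1 CPM in controls and 524.2 ± 86.2 CPM in knockdown libraries (SD, n = 4 each), 2.33-fold lower (log2 fold change -1.22, SE 0.15). It was read deeply, with between 31581 and 167657 reads per library.

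Rab3c (chromosome 13, 110190721 to 110417530, minus strand), a paralog found largely in neurons, had the largest difference of the Rab3 family. It stood at 508.5, 414.7, 380.6 and 341.8 CPM in control replicates 3, 4, 5 and 6 and at 158.8, 151.7, 137.7 and 136.8 CPM in knockdown replicates 2, 3, 4 and 5. The knockdown libraries lay close together, far below the lowest control, and the level was 2.81-fold lower (log2 fold change -1.49, SE 0.15).

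Rab3b (chromosome 4, 108736260 to 108800521, plus strand) is a paralog known in dopamine neurons and endocrine cells. Levels were 54.1, 55.9, 54.2 and 64.2 CPM in control replicates 3, 4, 5 and 6 but 22.0, 37.6, 32.8 and 40.1 CPM in knockdown replicates 2, 3, 4 and 5. The groups did not overlap, knockdown replicate 2 was the lowest, and the level was 1.72-fold lower (log2 fold change -0.78, SE 0.18). An opposite-strand gene, 8030443G20Rik, covers 9.0% of its exon bases. Reads were counted without strand, so reads of the 2 genes cannot be told apart there.

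Rab3d (chromosome 9, 21818787 to 21829488, minus strand), best known from exocrine glands and mast cells, had the lowest level per kilobase of the 9 genes. It had 4.87, 4.34, 2.75 and 3.04 CPM in control replicates 3, 4, 5 and 6, and 2.91, 3.48, 2.25 and 2.64 CPM in knockdown replicates 2, 3, 4 and 5. The groups overlapped, with control replicates 5 and 6 among the knockdown values (log2 fold change -0.41, SE 0.27, and -0.26 without control replicate 3). Between 169 and 430 reads per library support these values, far above a floor of 3 reads, which is 0.0203 to 0.0602 CPM.

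Per kilobase of exon, the scale on which genes can be compared, the Rab3 family summed to 600.5 ± 37.6 CPM per kb in controls and 257.8 ± 40.4 in knockdown libraries (SD, n = 4). Rab3a made up 91.5% ± 0.4 of that pool in controls and 91.3% ± 0.8 in knockdown libraries, so its share differed by less than the spread between replicates. Rab3b held 2.34% to 3.14% of the pool in controls and 3.08% to 3.86% in knockdown libraries. Rab3c held 4.89% to 6.43% in controls and 3.85% to 6.49% in knockdown libraries. Both of these ranges overlap between the groups. Rab3d held 0.114% to 0.177% in controls and 0.212% to 0.341% in knockdown libraries, which do not overlap.

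The stretches upstream of the Rab3 genes are shown because 3 of the paralogs were lower without overlap and Rab3d was not. Each is the 250 bases before a RefSeq transcription start (GRCm38.p6, not the build of the count table), 5′ to 3′ on the strand of the gene: chr8:70754453-70754702 (plus) for the upstream one of 2 Rab3a starts, chr4:108878820-108879069 (plus), chr13:110280207-110280456 (minus) and chr9:21918184-21918433 (minus). The bases just after the Rab3c start were found on neither strand in its transcripts of the reference annotation, so its start and strand rest on RefSeq alone. The same held for 1 of the 2 Rab3a starts and for the Rab27a starts. Capitals mark the GC box GGGCGG and the CCAAT box CCAAT, searched on both strands, and adjoining matches run together.
Rab3a: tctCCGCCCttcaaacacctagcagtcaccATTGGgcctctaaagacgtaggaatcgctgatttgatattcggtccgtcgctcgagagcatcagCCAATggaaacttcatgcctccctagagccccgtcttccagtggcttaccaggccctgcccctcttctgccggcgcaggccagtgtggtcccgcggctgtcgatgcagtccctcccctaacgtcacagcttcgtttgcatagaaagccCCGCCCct
Rab3b: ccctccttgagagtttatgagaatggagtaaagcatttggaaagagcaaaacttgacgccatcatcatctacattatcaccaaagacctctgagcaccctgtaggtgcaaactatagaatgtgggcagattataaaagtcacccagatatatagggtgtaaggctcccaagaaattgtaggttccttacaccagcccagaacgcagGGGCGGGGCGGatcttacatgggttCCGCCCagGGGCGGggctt
Rab3c: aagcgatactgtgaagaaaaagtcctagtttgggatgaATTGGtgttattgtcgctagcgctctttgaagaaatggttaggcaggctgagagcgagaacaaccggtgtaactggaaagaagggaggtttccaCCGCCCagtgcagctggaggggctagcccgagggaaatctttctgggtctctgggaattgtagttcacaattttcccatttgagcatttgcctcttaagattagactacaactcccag
Rab3d: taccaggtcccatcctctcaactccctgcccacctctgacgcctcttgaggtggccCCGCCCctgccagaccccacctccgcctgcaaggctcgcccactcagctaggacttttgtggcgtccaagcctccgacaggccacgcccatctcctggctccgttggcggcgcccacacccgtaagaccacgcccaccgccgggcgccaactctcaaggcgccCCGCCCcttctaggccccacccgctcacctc
The Rab3a window shown holds 2 GC boxes and 2 CCAAT boxes, while the window of its other start holds 0 of each. The Rab3b window holds 4 GC boxes, the Rab3c window 1 GC box and 1 CCAAT box, and the Rab3d window 2 GC boxes. GC content of the windows shown is 58.8%, 48.8%, 47.6% and 69.2% for Rab3a, Rab3b, Rab3c and Rab3d, against a median of 52.4% over all windows. Of 11 windows for 7 of the 9 genes, 7 hold a GC box and 5 a CCAAT box, against 32.7% and 33.8% of all 32851 windows of that length. Neither the cAMP response element TGACGTCA nor the STAT motif TTCNNNGAA occurs in any of the 11, against 1.55% and 7.02% of all windows. With shares that low, 0 among 11 windows was the likely outcome, so nothing is read from it. Some of the 11 windows also belong to the same gene and are not independent. In the 4 windows shown, both the genes that were lower and Rab3d hold GC boxes.

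**Figure D1:**
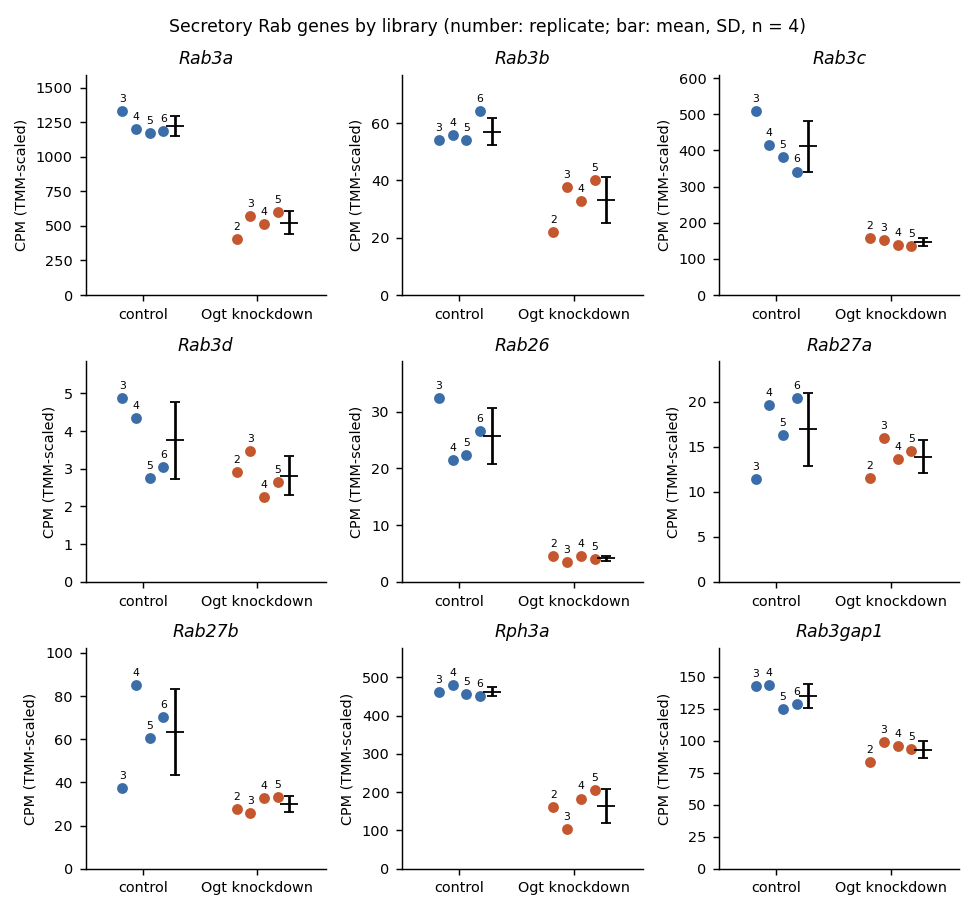
Level of each of the 9 secretory Rab genes in every library (y axis: TMM-scaled CPM, from 0), with points numbered by replicate and a bar for the mean and SD of each group (n = 4). Rab26 sits at 3.42 to 4.53 CPM in knockdown libraries and 21.5 to 32.4 CPM in controls, while the groups overlap for Rab3d and Rab27a.

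Rab26 (chromosome 17, 24746215 to 24753184, minus strand) differed most. This GTPase binds to vesicle membranes and recruits the autophagy protein Atg16l1. It was read at 32.4, 21.5, 22.4 and 26.7 CPM in control replicates 3, 4, 5 and 6, and at only 4.51, 3.42, 4.53 and 4.07 CPM in knockdown replicates 2, 3, 4 and 5. The highest knockdown library was far below the lowest control, and the level was 6.23-fold lower (log2 fold change -2.64, SE 0.19, and -2.43 without both libraries numbered 3, from 189 to 3772 reads per library). Traf7, on the same strand, shares 9.36% of the exon bases of Rab26.

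Rab27b (chromosome 18), the Rab27 form of neurons and other secretory cells, had 37.2, 85.1, 60.7 and 70.3 CPM in control replicates 3, 4, 5 and 6. It had 27.6, 26.0, 32.7 and 33.3 CPM in knockdown replicates 2, 3, 4 and 5. The groups did not overlap, but control replicate 3 came close to the knockdown libraries. The level was 2.12-fold lower (log2 fold change -1.08, SE 0.23, and -1.27 without control replicate 3).

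Rab27a (chromosome 9, 72952136 to 73004911, plus strand), which tethers melanosomes and cytotoxic granules, did not separate the groups. It had 11.4, 19.6, 16.3 and 20.4 CPM in control replicates 3, 4, 5 and 6, and 11.5, 15.9, 13.6 and 14.5 CPM in knockdown replicates 2, 3, 4 and 5. Control replicate 3 was the lowest of all 8 libraries. The log2 fold change was -0.29 (SE 0.20), and -0.51 without both libraries numbered 3. Per kilobase, Rab27a made up 42.9% ± 3.03 of the Rab27 pair in controls and 56.1% ± 4.51 in knockdown libraries (SD, n = 4), and each knockdown share (53.4% or more) was above each control share (45.8% or less).

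Rph3a (chromosome 5, 121078562 to 121148155, minus strand) encodes rabphilin, which binds Rab3 and Rab27 on vesicles. It had 461.1, 479.9, 457.6 and 451.6 CPM in control replicates 3, 4, 5 and 6, a narrow range. It had 162.1, 104.8, 183.5 and 205.5 CPM in knockdown replicates 2, 3, 4 and 5, where replicate 3 was the lowest. The level was 2.82-fold lower (log2 fold change -1.50, SE 0.19, and -1.33 without both libraries numbered 3).

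Rab3gap1 (chromosome 1, 127796510 to 127871605, plus strand) encodes the subunit that turns Rab3 off. It had 142.6, 143.4, 124.8 and 128.9 CPM in control replicates 3, 4, 5 and 6, and 83.1, 98.9, 96.1 and 93.7 CPM in knockdown replicates 2, 3, 4 and 5. The groups did not overlap, and the difference was smaller than for Rab3a, Rab3b and Rab3c (1.45-fold lower, log2 fold change -0.54, SE 0.11). Rab3gap2, the other subunit of the same complex, had a log2 fold change of -0.03 (SE 0.20) and did not pass the edgeR quasi-likelihood test (adjusted p = 0.923). Opposite-strand Iars2 covers 18.8% of its exon bases, and whether the 2 subunits differ in their change was not tested.

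Every knockdown library lay below every control for 7 of the 9 genes, all but Rab3d and Rab27a, against 18.0% of the 19912 genes tested (and 17.1% with every knockdown library above). Since the genes were chosen with this contrast known, nothing is read from this count. No one of the 9 genes had a positive log2 fold change. The median was -1.08, beside 0.00 over all genes tested.

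In controls the order of levels per kilobase was Rab3a (549.3 ± 32.4 CPM per kb), Rph3a (99.7 ± 2.63), Rab3c (34.1 ± 5.91), Rab3b (16.2 ± 1.36), Rab3gap1 (11.5 ± 0.808), Rab26 (9.03 ± 1.74), Rab27b (5.93 ± 1.88), Rab27a (4.37 ± 1.05) and Rab3d (0.894 ± 0.243; SD, n = 4). The ranges of neighbours overlapped from Rab3gap1 down to Rab27a and were apart for the rest. In knockdown libraries Rab26 moved from place 6 to place 8, at 1.45 ± 0.182 CPM per kb, below Rab27a (3.59 ± 0.476) and Rab27b (2.80 ± 0.343). The ranges of Rab3c (11.35 to 13.18 CPM per kb) and Rab3b (6.25 to 11.38) met there. No 50-base stretch was shared between the transcripts of any of the 9 genes in the reference annotation. With transcripts of genes outside the set, Rab3gap1 shared 8.89% of its 50-base stretches, Rab3b 7.7%, Rab26 5.95%, Rab27a 3.59%, Rab3c 0.587% and Rab27b 0.244%, so that part of their counts is uncertain, and Rab3a, Rab3d and Rph3a shared 0.

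Markers of neurons and glia moved in the same libraries. The 12 pan-neuronal markers summed to between 7161.7 and 8318.5 CPM in controls and between 2855.9 and 3603.8 CPM in knockdown libraries, and for 9 of the 12 all knockdown libraries lay below all controls. Of 14 dopamine neuron markers, 12 were lower in every knockdown library. Their sum overlapped (2209.3 to 3976.5 CPM in controls, 1818.5 to 2458.9 CPM in knockdown libraries). Aldh1a1, named after its values were seen, was higher without overlap (498.6 to 979.5 CPM in controls, 1323 to 1951 CPM in knockdown libraries). It made up most of the sum in each knockdown library, so the overlap of the sums does not describe the other markers. The 10 astrocyte markers summed to 1510.2 to 5719 CPM in controls and 9933.6 to 13925.9 CPM in knockdown libraries, with 8 of them higher in every knockdown library. For 11 microglia markers the sums were 30.5 to 52.7 CPM and 60.9 to 178 CPM, with 9 higher in every knockdown library. Summed GABA, glutamate and serotonin neuron markers (3 each) were also lower in all knockdown libraries. Taken singly, only 2, 1 and 2 of them were lower without overlap. The serotonin sum was 49.4 CPM in control replicate 3, 178.7 to 226.3 CPM in the other controls and 17.6 to 39.3 CPM in knockdown libraries. The sum of 10 oligodendrocyte markers was higher (1263.8 to 1877.3 CPM in controls, 1954.8 to 4453 CPM in knockdown libraries), with 1 of them higher in every knockdown library. Pericyte markers followed the endothelial ones, at 531.7 CPM in control replicate 3 and 8.9 to 14.6 CPM in the other controls. No marker on these neuronal, glial and vascular lists was at 0 in all libraries, and their part in the results was not tested. In such bulk libraries of captured RNA, fewer cells of a type, less RNA per cell and a different capture through the tag cannot be told apart.

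**Figure D2:**
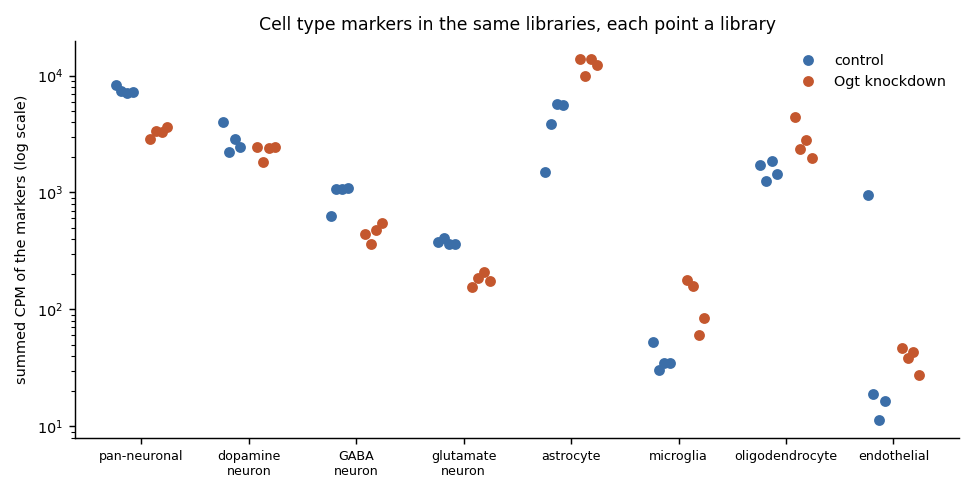
Summed CPM (y axis, log scale) of the markers of 8 cell types in each library (points), controls in blue and Ogt knockdown in red. Pan-neuronal sums are 7161.7 CPM or more in controls and 3603.8 CPM or less in knockdown libraries, astrocyte sums are the reverse, and the high endothelial point is control replicate 3.

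Set against the summed pan-neuronal markers of its own library, a ratio that no scaling between libraries can change, Rab3a overlapped between the groups. Its log2 ratio was -2.65 to -2.61 in controls and -2.81 to -2.56 in knockdown libraries, a difference of -0.03 (-0.15 with the other denominator described below). For Rph3a the difference was -0.34, and -0.12 without knockdown replicate 3, its lowest library at -5.01. Rph3a also overlapped between the groups, as did Rab3c (-0.28), Rab27b (0.17, and -0.11 without control replicate 3) and Rab3b (0.38). Rab26 did not: its log2 ratio was -8.42 to -8.005 in controls and -9.95 to -9.31 in knockdown libraries, a difference of -1.43 (-1.54 to -1.26 with libraries left out or another denominator). Rab3gap1 (0.66), Rab27a (0.94) and Rab3d (0.81) were higher relative to the summed neuronal markers in every knockdown library. The 12 markers themselves had log2 fold changes from -2.3 (Tubb3) to -0.35 (Ina), so these ratios depend on which markers are summed. The log2 fold changes of Rab3gap1 (-0.54) and Rab3d (-0.41) lay within that range, and those of Rab26 (-2.64) and Rab27a (-0.29) outside it. With the mean log2 CPM of the 12 markers as denominator, a choice made after seeing the data, Rab26 (-1.54), Rab3gap1 (0.54) and Rab27a (0.82) still separated the groups, Rab3d (0.69) overlapped, and Rph3a (-0.46) was lower without overlap. These are descriptions of the same contrast, with no test.

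**Figure D3:**
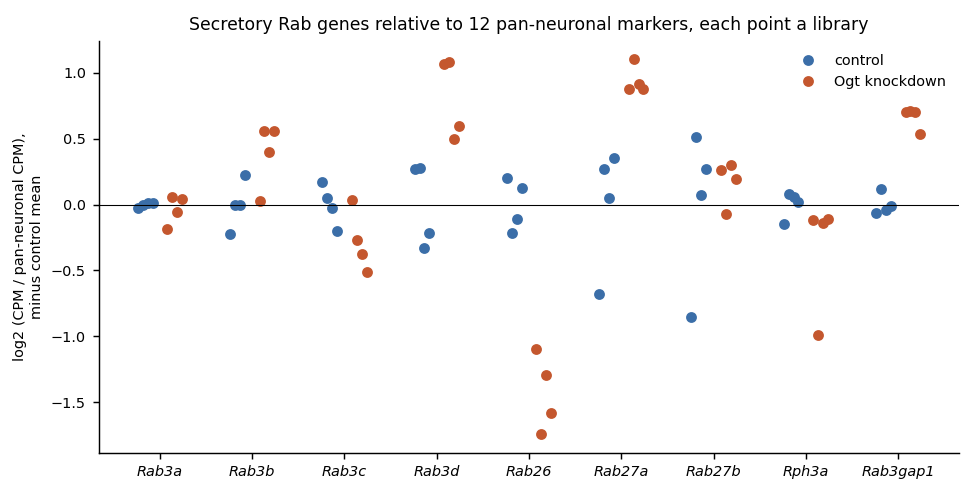
Log2 of the CPM of each secretory Rab gene over the summed CPM of 12 pan-neuronal markers in the same library, minus the mean of the controls (y axis); each point is a library, controls in blue and Ogt knockdown in red. Rab3a stays near 0 in all 8 libraries, Rab26 lies below every control, and Rab3d, Rab27a and Rab3gap1 lie above.

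The genes whose pattern over the 8 libraries was most like that of each member were found by the root mean square difference of centred log2 CPM, among 11549 named genes with a mean log2 CPM above 2 (11550 for Rab3d). For Rab3a these were Stmn2 (0.052), which encodes the microtubule regulator stathmin-2 and is itself one of the 12 pan-neuronal markers, and Actg1 (0.089), a cytoplasmic actin. For Rab3b they were Ccdc65 (0.079) and Nxph4 (0.099), a neurexophilin, and for Rab3c the peptide gene Calca (0.112) and the tetraspanin gene Tspan17 (0.142). Rab26 was nearest to Baiap3 (0.194), a Munc13-related protein of dense-core vesicle traffic, and Ache (0.226), acetylcholinesterase. Rph3a was nearest to Slc29a4 (0.064), a monoamine transporter, and Rhof (0.078), and Rab3gap1 to Ctps (0.051) and Tpm1 (0.064). Rab27a was nearest to Snx16 (0.063), a sorting nexin, and Rab2a (0.088), a Rab of early secretion. Rab27b was nearest to Gnl3l (0.107) and Arhgef3 (0.12), and Rab3d to Tmtc4 (0.133) and Hook2 (0.139). No member was among the 2 nearest genes of another. The closest members were Rab3a and Rab3b (0.248), and the farthest Rab26 and Rab27a (1.259).

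Most of the other Rab GTPases did not pass the test. Of 52 listed, 51 were tested (Rab17 was too low): 12 fell, 8 rose and 31 did not pass (edgeR, adjusted p under 0.05 by Benjamini-Hochberg over 19912 genes), with a median log2 fold change of -0.12. That is 23.5% lower and 15.7% higher, beside 15.1% and 13.4% of all genes tested. Of the 51, 13 lay lower and 12 higher in all knockdown libraries, with no overlap between the groups (18.0% and 17.1% of all genes). With upper quartile scaling 9 fell and 10 rose, and without both libraries numbered 3, 19 fell and 11 rose. The 8 that rose became 5 without control replicate 4, 4 without control replicate 6, and 5, 4 and 5 without knockdown replicate 2, 4 and 5.

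Rab37, the closest relative of Rab26 and, like it, a granule GTPase, fell furthest. It had 21.5, 26.2, 27.7 and 19.9 CPM in control replicates 3, 4, 5 and 6, and 8.38, 6.19, 5.18 and 6.59 CPM in knockdown replicates 2, 3, 4 and 5. The groups did not overlap (log2 fold change -1.85, SE 0.19, edgeR adjusted p = 0.000275). Rab33a, a Golgi Rab of neurons, fell 1.99-fold, Rab11b of recycling endosomes 1.76-fold and Rab39b, a neuronal Rab mutated in an X-linked intellectual disability, 1.55-fold (edgeR adjusted p = 0.00325, 0.00135 and 0.00757). An opposite-strand gene covers 18.6% of the exon bases of Rab39b. Rab4b fell from 2.24 ± 0.278 to 0.766 ± 0.341 CPM (SD, n = 4, edgeR adjusted p = 0.0131), but 65.0% of its exon bases are shared with a same-strand gene, so its count is uncertain.

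Of those that rose, the 5 with the smallest p follow. Rab29, which recruits the kinase LRRK2 to membranes, had 5.08, 7.73, 11.9 and 6.90 CPM in control replicates 3, 4, 5 and 6. It had 26.2, 42.1, 20.96 and 28.0 CPM in knockdown replicates 2, 3, 4 and 5 (3.71-fold, log2 fold change 1.89, SE 0.29, edgeR adjusted p = 0.0015, and log2 fold change 1.5 without both libraries numbered 3). Rab13, of tight junction traffic, rose 3.48-fold, Rab7b of late endosomes 3.22-fold and Rab32 of lysosome-related organelles 2.54-fold (edgeR adjusted p = 0.00072, 0.00895 and 0.0138). Rab7b and Rab32 were low, at 1.88 ± 0.615 and 3.35 ± 1.39 CPM in knockdown libraries (SD, n = 4). Rab33b rose 1.53-fold (edgeR adjusted p = 0.0174), a call lost without control replicate 6 (edgeR adjusted p = 0.052) or knockdown replicate 4 (adjusted p = 0.0554), and 18.7% of its exon bases lie under an opposite-strand gene. Astrocyte and microglia markers were higher in the same libraries, as given above, and their part in these rises was not tested.

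**Figure D4:**
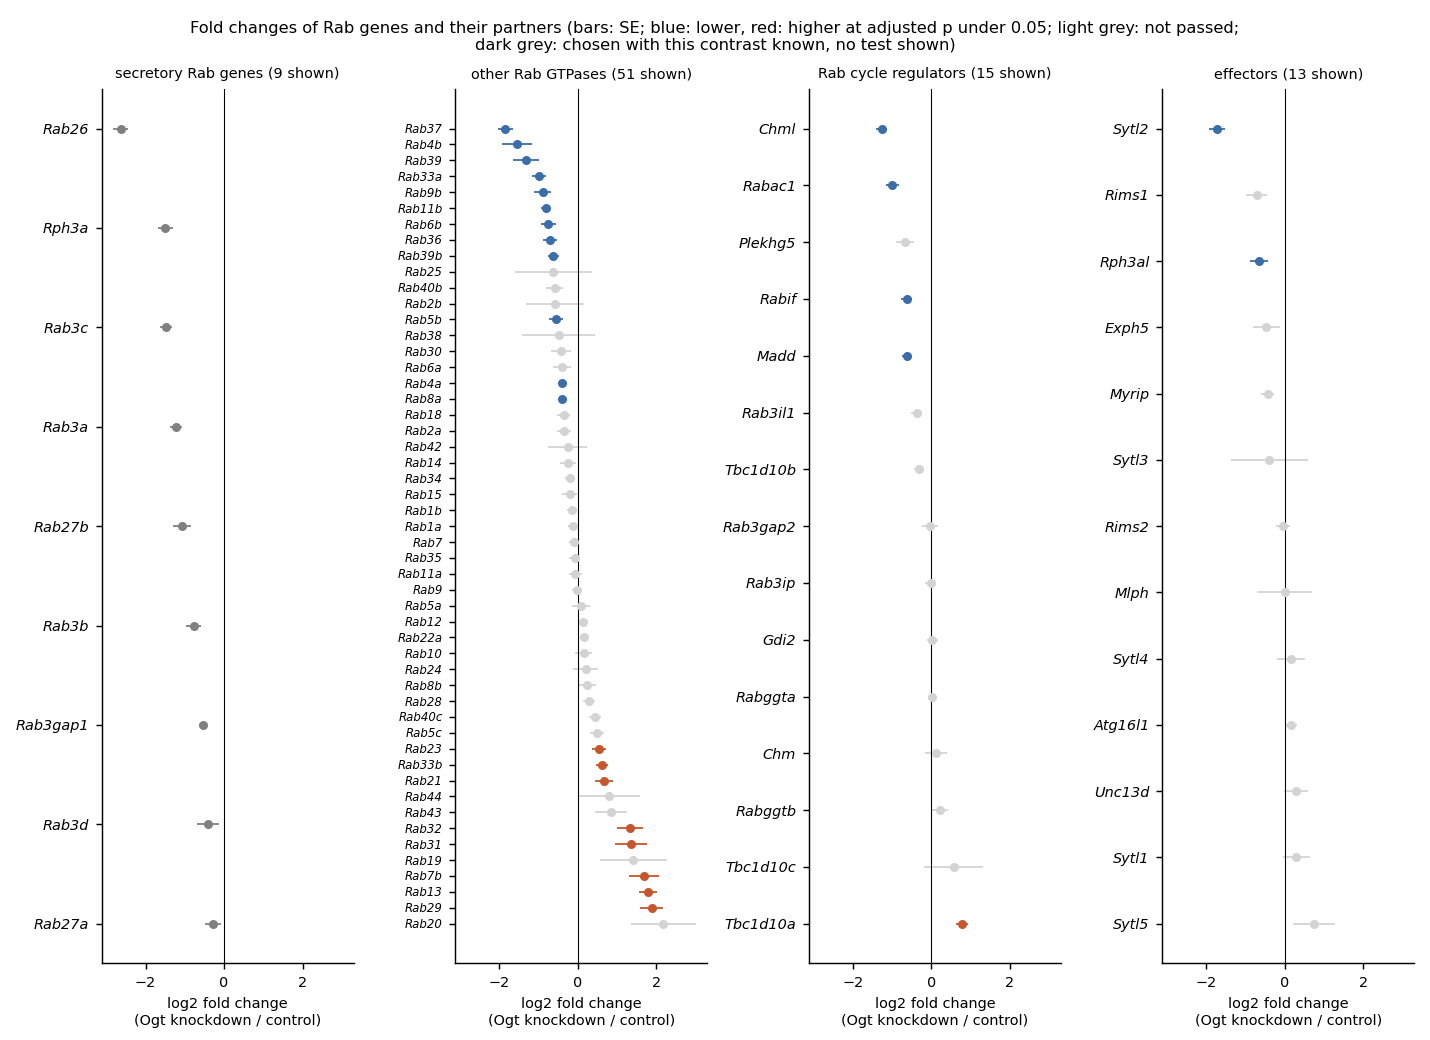
Log2 fold change, Ogt knockdown over control (x axis; bars, SE), of the 9 secretory Rab genes (dark grey, no test shown), 51 other Rab GTPases, 15 of the regulators and 13 effectors, with blue and red for genes lower and higher at an adjusted p under 0.05 and light grey for the rest. The secretory Rab genes run from -2.64 (Rab26) to -0.29 (Rab27a), and the other Rab GTPases from -1.85 (Rab37) to 2.18 (Rab20, which did not pass).

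Among 16 proteins that load, unload, escort or switch these Rabs, 5 fell, 1 rose and 10 did not pass (median log2 fold change -0.18; without both libraries numbered 3, 8 fell). That is 31.2% lower and 6.25% higher, beside 15.1% and 13.4% of all genes tested. Chml, an escort protein for Rab prenylation, fell 2.41-fold (edgeR adjusted p = 0.000264), while its paralog Chm had a log2 fold change of 0.12 (SE 0.28, edgeR adjusted p = 0.786). Whether the 2 paralogs differ in their change was not tested. Rabac1, the prenylated Rab acceptor, fell 1.99-fold, Madd, the exchange factor of Rab3 and Rab27, 1.54-fold, and Rabif, a chaperone of nucleotide-free Rabs, 1.55-fold (edgeR adjusted p = 0.00181, 0.00997 and 0.013). Tbc1d10a, a GTPase-activating protein for Rab27a, rose 1.71-fold, with means of 31.3 ± 5.41 CPM in controls and 53.6 ± 6.69 CPM in knockdown libraries (± SD over 4 libraries; edgeR adjusted p = 0.00616).

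Of 13 effectors of these GTPases other than Rph3a, 2 fell, 0 rose and 11 did not pass (median log2 fold change -0.06). The share that fell, 15.4%, is close to the 15.1% of all genes tested, and 13.4% of all genes rose. By edgeR at an unadjusted p under 0.05, 0 were higher and 4 lower, beside 3939 higher and 4062 lower of the 19912 genes tested. DESeq2 called 0 effectors higher and 3 lower. Sytl2, a synaptotagmin-like protein that binds Rab27, had 29.9, 54.9, 49.6 and 48.0 CPM in control replicates 3, 4, 5 and 6. It had 16.2, 13.4, 12.2 and 12.8 CPM in knockdown replicates 2, 3, 4 and 5, all below the controls (3.33-fold lower, log2 fold change -1.74, SE 0.20, edgeR adjusted p = 0.000447). Rph3al (Noc2), a small relative of rabphilin, fell 1.58-fold at the edge of the threshold (edgeR adjusted p = 0.0448), a call lost when any library but control replicate 3 was left out (0.0526 to 0.126). The active zone proteins Rims1 and Rims2 did not pass, with log2 fold changes of -0.72 (SE 0.26, edgeR adjusted p = 0.0602) and -0.06 (SE 0.18, adjusted p = 0.849), both chosen after their values were seen.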

How the data were processed

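The authors deposited whole-number read counts per gene, made with featureCounts 2.0.3 over exons of GENCODE vM30 (GRCm39), per the file headers. The header's command marks the input as paired (-p) and holds no option for counting pairs, strand, multiple alignments or overlapping genes. Per the submitters' processing notes, FastQC, Trimmomatic and STAR were used, and mm10 is given as build, which differs from that of the annotation and was not resolved. The deposited exon length per gene, another column, gave CPM per kb. Symbols came from GENCODE M21 by gene ID (52073 of 56691 matched), and promoter sequences from RefSeq (GRCm38.p6).

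Genes were filtered with filterByExpr, scaled by TMM and tested with edgeR 4.0.16 (glmQLFit robust, glmQLFTest, two-sided) in R 4.3.3, after a trial on simulated data. Log2 CPM used a prior count of 2. Alternatives were other scalings and filters, DESeq2 1.42.0, a replicate block and libraries left out.

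The members and lists were chosen with earlier results of these data known. Named beside them are Ogt, Th, Slc6a3, up to 5 called genes per list and direction with the smallest p, exceptions to a count, and the 2 genes most like each member. A regulator is counted but not reported here.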

Additional observations from a re-analysis of the deposited data

Results flagged for a closer look

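In groups of 4 libraries, 1 library was tested for lying far from the rest (a gap to the nearest library wide against the range, by Dixon's criterion) for the 9 genes and 39 other named genes, 96 groups in all, of which chance flags about 1 in 20. The test picked 5 values. In control replicate 3, Rab3a had 1329 CPM (other controls 1174 to 1199), Madd 262.1 CPM (182.4 to 194.1), Ache 527.7 CPM (316.9 to 331.2) and Rab2a 264.4 CPM (412.6 to 438.2). In control replicate 5, Stmn2 had 617.1 CPM (other controls 643.3 to 645.5). All but 1 of them are in the library that also held the endothelial markers.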

How the results depend on the processing

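All 135 log2 fold changes of the 9 genes under the 15 alternatives stayed below 0, and no called result changed sign. They also stayed within 1 SD of the value reported, but that SD is between single libraries, a wide measure for a difference of means. Rab27a ranged from -0.51 to -0.07 and Rab3b from -0.91 to -0.57. With the replicate number as a block, over all genes 480 were higher and 778 lower (2659 and 3009 without the block), 2 other Rab GTPases were higher and 2 lower, and 2 regulators were lower. The numbers were not taken as pairs: same-numbered libraries share only a number, and their deviations from the group means correlated at 0.104, 0.0987 and 0.0422 for numbers 3, 4 and 5, and control replicate 5 did not correlate best with its own number. Without both libraries numbered 3, 4805 genes were higher and 4760 lower, and 19 other Rab GTPases, 8 regulators and 4 effectors were lower, and log2 fold changes moved from 1.80 to 1.43 for Rab13, from 1.89 to 1.5 for Rab29 and from -0.62 to -0.46 for Madd. The effectors called lower were 1 with upper quartile scaling and 1 with no filter. With each library left out in turn, genes called higher ranged from 1684 (control replicate 4) to 3723 (control replicate 3), other Rab GTPases called higher from 4 to 9, and effectors called lower from 1 to 3. The causes were not tested. Of 585 values for the other named genes, 541 kept their side of the threshold, 40 lost it and 4 gained it. Depth limits Rab3d most, at 169 to 430 reads per library.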
